A study of Arabidopsis thaliana with 37 samples.

Results

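Seedlings of Arabidopsis thaliana that carried the ago1-11 allele were compared directly with seedlings that carried the ago1-10 allele, both at 21 days. The comparison rests on 6 of the series' 37 arrays, 3 for each allele, chosen by the genotype and age that the labels give. The rest of the series holds wild-type Ler and Col seedlings, each at 9 and at 21 days. At 21 days Ler comes as separate sets, labelled Ler (1) and Ler (2). The series also holds both ago1 alleles at 9 days, ago1-10 at 35 days and the dcl1-9 mutant at 21 days. Each sample's total RNA, labelled with biotin, was read on a 1-colour Affymetrix array of 8247 probe sets. All 3 ago1-11 samples carry the strain code MR57 and all 3 ago1-10 samples the code MR44, so the allele and the line it was kept in cannot be told apart. The labels describe neither lesion, give no accession for either allele and name no treatment. They call every sample seedling, and do not say whether seedlings were pooled or whether the arrays of an allele came from separate sowings. The p-values therefore measure only the spread between these arrays.

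ARGONAUTE1, the product of the AGO1 gene, is the main protein that microRNAs load onto in plants, and it cuts or silences the messenger RNAs to which they pair. DICER-LIKE1, the product of DCL1, cuts most microRNAs from their precursors. Loss of AGO1 function is known for raised levels of microRNA target messages and for narrow, poorly polarised leaves. The annotation names 0 probe sets for AGO1 and 0 for DCL1, so no check of the mutated gene was possible. Where the annotation gives a gene by its locus alone, the role stated for it is background knowledge of Arabidopsis.

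Signals are linear array intensities scaled to a common array median of 19.1, differences are log2 values of ago1-11 minus ago1-10, and a positive value means more signal in ago1-11. A probe set was tested where its signal exceeded 12 on at least 3 of the 37 arrays. A group mean below 12 lies near background, so the size of such a difference depends on the constant of 1.1 added before the log2, and the value with 16 added is then given too. Calls rest on a limma model of all 37 arrays, with p-values adjusted by the Benjamini-Hochberg method and a threshold of 0.05. Replicate numbers follow the order of the samples.

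Before scaling, the medians of the 3 ago1-11 arrays lay between 12.8 and 18.7 and those of the 3 ago1-10 arrays between 22.4 and 25.2, so the alleles did not overlap in brightness. The part of this in the results was not tested beyond the scalings compared in the closing section. Log2 signals correlated at 0.918 to 0.951 between ago1-10 arrays, at 0.914 to 0.935 between ago1-11 arrays and at 0.878 to 0.923 between the alleles, over the 6048 tested probe sets. The title of ago1-10 replicate 3 carries the number 3 where the other 21-day titles carry 2. The label gives its age as 21 days, and it was kept there. Without it 575 probe sets were called in place of 454. The seedlings showed the high photosynthesis signals of green tissue, with Rubisco activase (RCA) at 2081 to 4522 on the 6 arrays. Of 9 flower, anther and pollen genes measured 0 were called, with differences from -0.26 to 0.81. Of the 9 differences 8 were positive, and the list median was 0.36 beside -0.04 over all tested probe sets. No gene of the seed or root marker lists was measured.

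At 21 days the alleles differed at 454 of 6048 tested probe sets, which is 7.51% of those tested. Of these, 254 were higher in ago1-11 (4.2% of those tested) and 200 were lower (3.31%). At least 2-fold differences were found for 191 of the higher and 136 of the lower probe sets. The genes higher in ago1-11 included photosystem and Calvin cycle genes, the leaf polarity gene YAB3 and the growth gene EXO. Those lower in ago1-11 included chitinases, osmotin, peroxidases, lectins and beta-glucosidases of the glucosinolate and ER body list, and the microRNA targets ARPN and APS4. For 421 of the 454 probe sets the 3 arrays of one allele lay entirely on one side of the other's, which was the case for 21.7% of all tested probe sets. Only 157 of the 454 match a single annotated gene, and the other 297 stay unnamed. At an unadjusted p under 0.05 there were 1366 probe sets. The count depended on single arrays. It was 102 without ago1-10 replicate 2, 182 without ago1-11 replicate 2, 213 without ago1-10 replicate 1 and 259 without ago1-11 replicate 3. With no other group in the model, the 6 arrays alone gave 58, or 254 with the last letter of their titles as a replicate block. The cause was not tested.

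The listed targets of microRNAs were the genes nearest to the known role of AGO1. Of 6 measured, 2 fell in ago1-11 relative to ago1-10, 0 rose and 4 did not pass, with a list median of -0.39 beside -0.04 over all tested probe sets. The 2 calls are 33.3% of the list, beside 7.51% of all tested probe sets called and 3.31% lower. ARPN, a plantacyanin (a small blue copper protein) whose message is a target of miR408, read 103, 163 and 46.3 in the ago1-10 arrays and 42.4, 26.1 and 29.1 in the ago1-11 arrays. Every ago1-11 array lay below every ago1-10 array, though the gap between the nearest arrays was small. The difference was -1.50 ± 0.41 (SE, limma adjusted p = 0.0208). The pair of further ARPN probe sets gave -1.25 and -1.67 with adjusted p = 0.0831 and 0.0664 in limma and did not pass. In the 3 Ler (1) arrays of the same age ARPN read 11.9 to 23.5, below all 6 mutant arrays.

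APS4, an ATP sulfurylase that activates sulfate and is a target of miR395, read 504, 653 and 343 in ago1-10 and 317, 203 and 259 in ago1-11. The groups did not overlap, and both stood above the Ler (1) range of 95.1 to 142. The difference between the alleles was -0.92 ± 0.28 (SE, limma adjusted p = 0.0374). Its relative APS3, another listed target of miR395, read 113, 73.4 and 112 in ago1-10 and 75.2, 70.5 and 78.03 in ago1-11. These groups overlapped, and the difference of -0.39 ± 0.25 (SE) had an adjusted p = 0.367 in limma.

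The remaining listed targets did not pass either. PHV, an HD-ZIP transcription factor that specifies the upper leaf side and is a target of miR165 and miR166, read 69.5, 60.4 and 59.95 in ago1-10 and 39.5, 37.5 and 79.3 in ago1-11. Replicate 3 of ago1-11 was the highest of the 6 arrays and the other two were the lowest, and the difference of -0.36 ± 0.33 (SE) had an adjusted p = 0.561 in limma. LCR, an F-box protein of leaf development and a target of miR394, differed by -0.39 ± 0.38 (SE, limma adjusted p = 0.579). CCS, the copper chaperone of superoxide dismutase and a target of miR398, differed by 0.19 ± 0.36 (SE, limma adjusted p = 0.793). Of the small RNA pathway proteins SE and SQN were measured, and neither was called, at 0.16 and 0.22. The calls of ARPN and APS4 were lost without ago1-10 replicate 1, ago1-10 replicate 2, ago1-11 replicate 2 or ago1-11 replicate 3. With the 6 arrays alone 0 of the 6 listed targets were called. The call of APS4 was also lost with only the 21-day wild types beside the 6 arrays.

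The largest difference of the comparison belonged to AT2G44120, which encodes a ribosomal protein of the L7 family. It read 4.76, 2.56 and 8.19 in ago1-10 and 537, 661 and 438 in ago1-11. All 3 ago1-10 arrays lay under the filter value, and the ago1-11 arrays overlapped or exceeded the 370 to 497 of Ler (1). The difference was 6.53 ± 0.36 (SE, limma adjusted p = 3e-15) and 4.72 with 16 added. The same contrast stood out at the other ages, with a mean of 5.26 in ago1-10 and 601 in ago1-11 at 9 days, and a mean of 3.07 in ago1-10 at 35 days. The dcl1-9 mean was 557.

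AT4G29030 read 69.1, 29.7 and 22.4 in ago1-10 and 217, 439 and 357 in ago1-11. The arrays of the alleles lay far apart, with a difference of 3.13 ± 0.36 (SE, limma adjusted p = 1e-06). Its neighbour in the gene order, AT4G29020, read 86.9, 82.9 and 60.1 in ago1-10 and 231, 279 and 393 in ago1-11, a difference of 1.94 ± 0.34 (SE, limma adjusted p = 0.00085). No protein-coding gene lies between these loci in the TAIR10.1 gene table.

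YAB3 and EXO, genes of leaf form and of growth, were among the 12 highest named genes in ago1-11, while most measured members of their lists were not called. YAB3, a YABBY transcription factor of the lower leaf side, read 30.3, 25.5 and 34.9 in ago1-10 and 95.7, 130 and 137 in ago1-11. The ago1-10 arrays lay below the Ler (1) range of 60.9 to 94.1 and the ago1-11 arrays above it, the lowest only just. The difference of ago1-11 from Ler (1) was not called, at 0.61 (limma adjusted p = 0.295). On the second YAB3 probe set it was 0.13 (limma adjusted p = 0.919). The difference between the alleles was 1.95 ± 0.30 (SE, limma adjusted p = 0.00011), and the second YAB3 probe set gave 2.29 ± 0.47 (SE, limma adjusted p = 0.0036) from an ago1-10 mean of 10.7, near background, or 1.45 with 16 added. YAB3 was the single called gene of the 4 leaf polarity and meristem regulators measured (25.0%, beside 7.51% of all tested probe sets). The others, PHV, LCR and SE, are given above.

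EXO (EXORDIUM), a protein of the cell surface that brassinosteroids raise and that promotes cell expansion, read 192, 152 and 65.2 in ago1-10 and 421, 459 and 533 in ago1-11. The ago1-10 arrays lay on both sides of the Ler (1) range of 93.5 to 114, and the ago1-11 arrays lay above it. The difference between the alleles was 1.91 ± 0.41 (SE, limma adjusted p = 0.0055). EXO was also the single one of 19 measured cell wall growth genes that was called (5.26%, beside 7.51% of all tested, so the share is no result about the list), and 14 of the 19 had a positive difference, with a median of 0.38. EXGT-A3, a xyloglucan-modifying enzyme, came nearest to it at 1.13 ± 0.37 (SE, limma adjusted p = 0.0537) and did not pass.

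The remaining genes of the 12 highest were of several kinds. AT4G18970, a GDSL-type lipase, read 13.3, 15.9 and 34.7 in ago1-10 and 70.9, 116 and 97.6 in ago1-11, a difference of 2.19 ± 0.37 (SE, limma adjusted p = 0.00052). AT1G09750, an aspartyl protease-like protein, had means of 129 ± 33.2 (SD, n = 3) in ago1-10 and 444 ± 229 (SD, n = 3) in ago1-11. Replicate 3 of ago1-11, at 708, stood well above its fellows at 319 and 305. AT1G62500, a lipid-transfer-type protein, differed by 1.88, AT1G11850 by 1.79 and AT4G17810 by 2.15, each with no overlap between the alleles.

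BGLU28, a beta-glucosidase known to rise under sulfur starvation and to take part in glucosinolate breakdown, was measured above background in ago1-11 alone among the 21-day groups. It read 2.21, 1.45 and 2.20 in ago1-10 and 27.01, 51.1 and 19.5 in ago1-11, with group means of 0.866 in Ler (1), 2.10 in Ler (2), 0.569 in Col and 2.46 in dcl1-9. The difference between the alleles was 3.36 ± 0.66 (SE, limma adjusted p = 0.0026), which came to 1.38 with 16 added. At 9 days the mean was 1.01 in ago1-10 and 0.639 in ago1-11, both under the filter value.

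**Figure D1:**
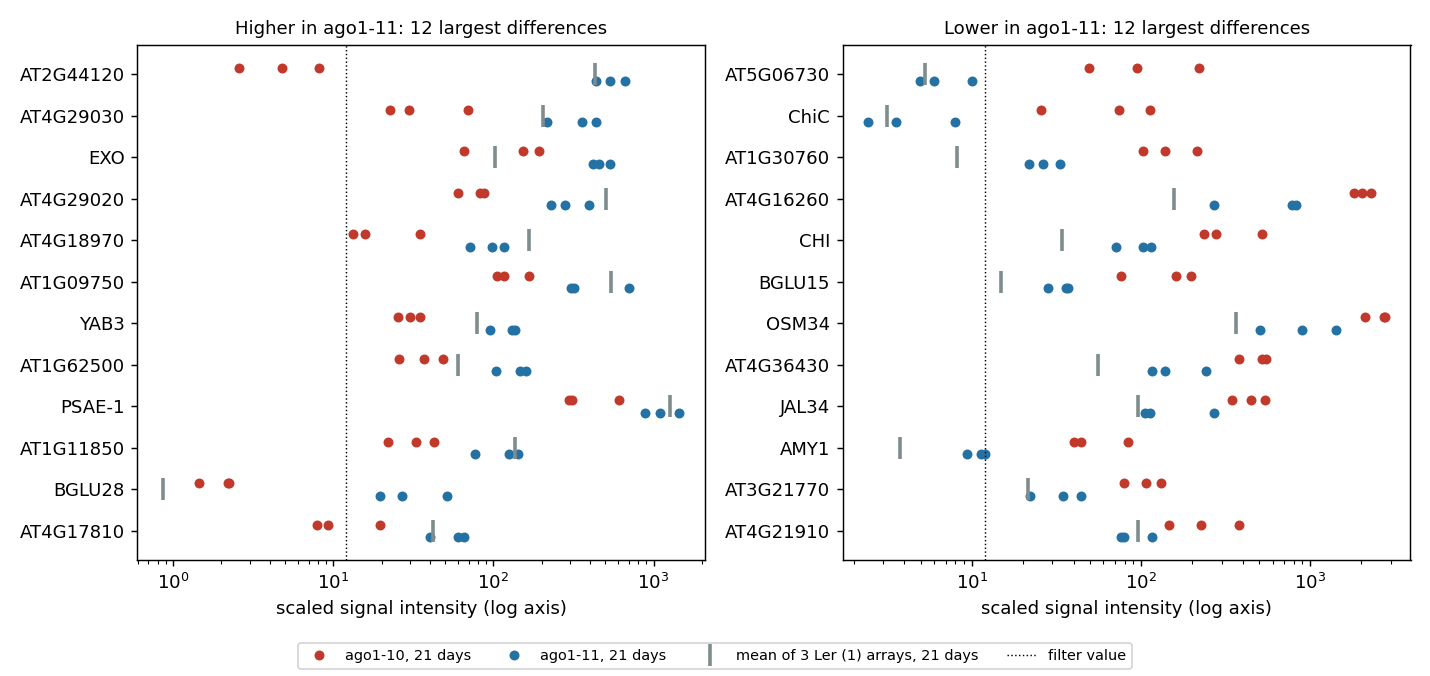
Scaled signal intensity on a log axis for the 12 highest (left) and 12 lowest (right) named differences, with 1 point per array (red ago1-10, blue ago1-11), a grey bar for the mean of the 3 Ler (1) arrays and a dotted line at the filter value of 12. In every row the 3 points of one allele lie to one side of the other's, as the naming rule requires, and AT2G44120 has the widest gap, from at most 8.19 in ago1-10 to at least 438 in ago1-11.

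Most measured genes of the photosynthetic membrane were higher in ago1-11. The light-harvesting antenna passes absorbed light to photosystem I and photosystem II, which drive electron transport in the thylakoid, and the Calvin cycle in the stroma uses the products to fix carbon. Of 10 measured antenna, photosystem and thylakoid genes 7 were higher, 0 lower and 3 did not pass, beside 4.2% higher and 3.31% lower over all tested probe sets, and the list median was 1.17 beside -0.04. A lower share of green cells and less of these messages per cell cannot be told apart in whole seedlings. The arrays of the alleles also differed in brightness, as given above, and its part here was not tested.

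LHCB4.1 encodes CP29, an inner antenna protein of photosystem II. It read 1471, 1888 and 2660 in ago1-10 and 4169, 4005 and 4797 in ago1-11, against 4609 to 5010 in Ler (1). The ago1-11 arrays lay near the wild type and the ago1-10 arrays well below. The difference between the alleles was 1.15 ± 0.27 (SE, limma adjusted p = 0.0083). The isoform LHCB4.3 read 192, 207 and 184 in ago1-10 and 127, 87.2 and 205 in ago1-11, with overlapping groups and a difference of -0.56 ± 0.37 (SE, limma adjusted p = 0.386). LHB1B2, a major antenna protein, had no overlap but missed the threshold at 0.74 ± 0.26 (SE, limma adjusted p = 0.0785).

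Within photosystem I, PSAE-1, a subunit on the stromal side where ferredoxin docks, had 3 probe sets that were all called, at 1.55, 1.24 and 1.07. Its brightest read 1467, 1552 and 2425 in ago1-10 and 4656, 3711 and 4169 in ago1-11. PSAN, a subunit on the lumenal side, was higher by 1.196 ± 0.35 (SE, limma adjusted p = 0.0316). Of the photosystem II genes, PSBY, a small membrane subunit, read 1601, 1434 and 1760 in ago1-10 and 3981, 3326 and 3608 in ago1-11. The arrays of each allele lay close together, and the difference of 1.19 ± 0.25 (SE, limma adjusted p = 0.0045) passed with each of the 6 arrays left out. PSBW, another small subunit, was higher by 1.13 ± 0.29 (SE, limma adjusted p = 0.0158). PSB27, an assembly factor, was higher by 1.23 ± 0.32 (SE, limma adjusted p = 0.0166). TROL, which anchors a ferredoxin-NADP reductase to the thylakoid, read 124, 173 and 269 in ago1-10 and 271, 415 and 663 in ago1-11, so that the nearest arrays of the alleles almost met. TAPX, the thylakoid ascorbate peroxidase, did not pass at 0.54 ± 0.39 (SE, limma adjusted p = 0.432).

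Carbon fixation and chloroplast redox genes followed the same direction, with 4 of 6 measured higher, 0 lower and a median of 0.92, against the same background. RCA, the activase that frees Rubisco of inhibitors, read 2081, 2221 and 2285 in ago1-10 and 3808, 3823 and 4522 in ago1-11. All 3 ago1-10 arrays lay below the 4009 to 4278 of Ler (1), and the difference between the alleles was 0.88 ± 0.19 (SE, limma adjusted p = 0.0058). TRXF2, a chloroplast thioredoxin that activates Calvin cycle enzymes in light, read 273, 177 and 357 in ago1-10 and 468, 763 and 578 in ago1-11, a difference of 1.19 ± 0.31 (SE, limma adjusted p = 0.0157). HPR, the hydroxypyruvate reductase of photorespiration, was higher by 1.17 ± 0.32 (SE, limma adjusted p = 0.0234). NTRC, the chloroplast NADPH-thioredoxin reductase, was higher by 0.95 ± 0.27 (SE, limma adjusted p = 0.0267). The Calvin cycle enzymes PRK, at 0.89, and SBPASE, at 0.85, did not pass, with limma adjusted p = 0.0724 and 0.0995. In PRK the third ago1-10 array, at 1031, lay among the ago1-11 arrays, while the other ago1-10 arrays read 354 and 351.

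Of 4 measured chlorophyll genes 1 was called (25.0%, beside 7.51% of all tested probe sets). PORB, a light-dependent protochlorophyllide reductase, read 173, 199 and 549 in ago1-10 and 420, 724 and 697 in ago1-11, with the third ago1-10 array above the lowest ago1-11 array. The difference was 1.16 ± 0.33 (SE, limma adjusted p = 0.0278). GSA1, HEME2 and HEMA2, which act earlier in tetrapyrrole synthesis, gave 0.76, 0.80 and 0.22 and did not pass.

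The direction of the photosystem and carbon fixation lists was the same under the 3 other scalings run (quantile, centred log2 values and a trimmed mean). Under quantile normalization the antenna and photosystem median was 0.65 with 5 of 10 called, the carbon fixation median was 0.95 with 3 of 6 called, and LHCB4.1 and RCA lost their calls. The number of the 10 antenna and photosystem genes called fell to 1 without ago1-10 replicate 1, to 2 without ago1-10 replicate 2 and to 0 with the 6 arrays alone. The number of the 6 carbon fixation genes called fell to 1 without ago1-10 replicate 2 or ago1-11 replicate 2 and to 2 without ago1-10 replicate 1 or ago1-11 replicate 3, and to 0 with the 6 arrays alone.

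**Figure D2:**
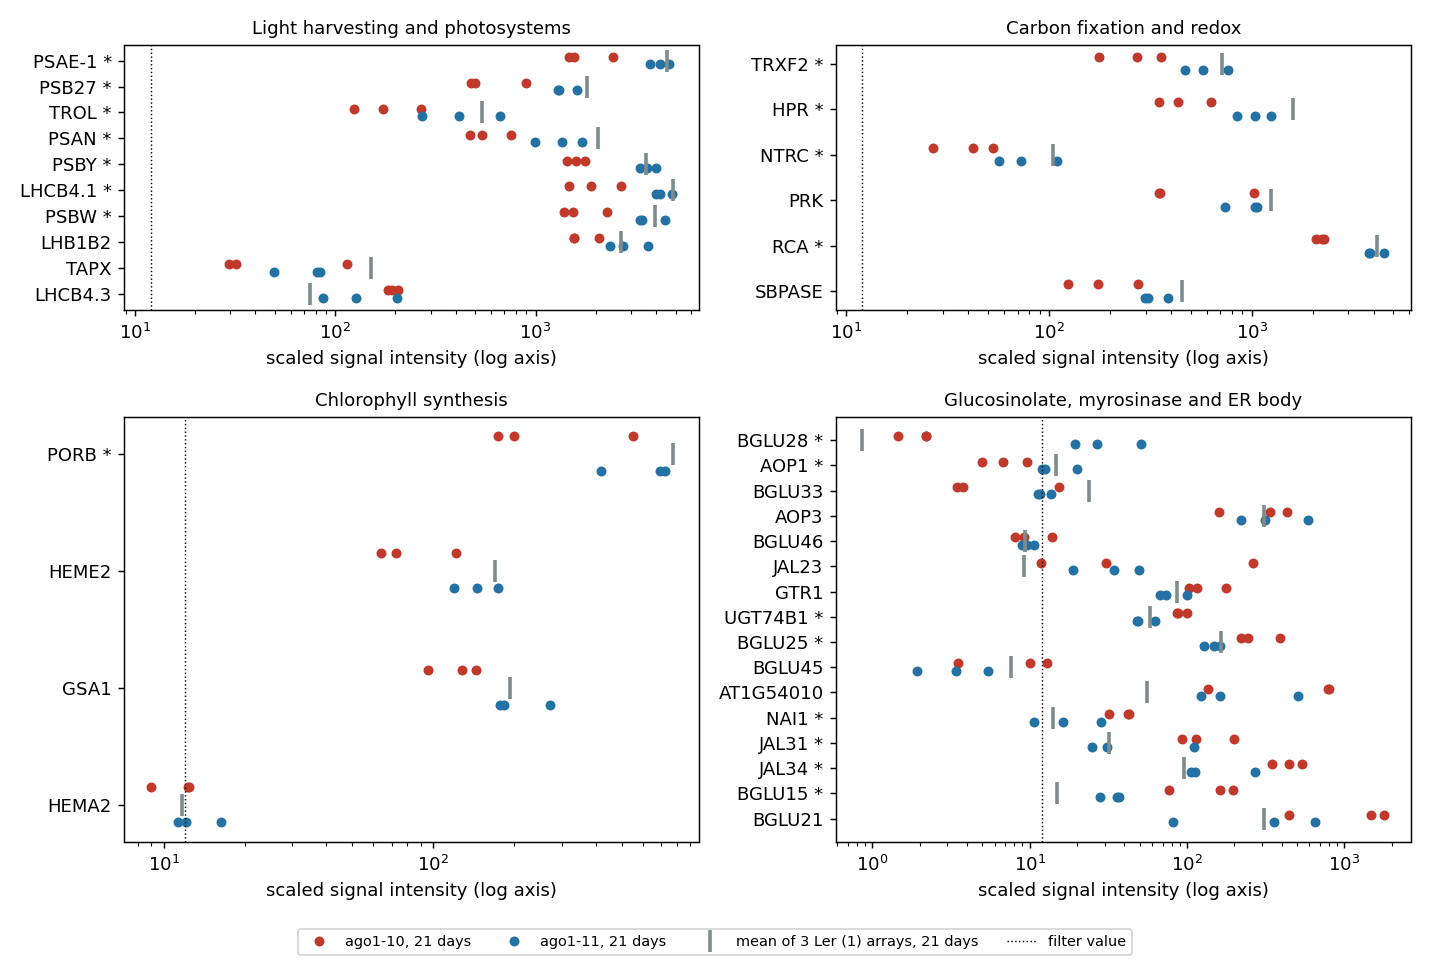
Scaled signal intensity on a log axis of every measured member of 4 gene lists, 1 point per array (red ago1-10, blue ago1-11), with the mean of the 3 Ler (1) arrays as a grey bar, the filter value as a dotted line and an asterisk on called genes. The blue points lie to the right of the red for 9 of the 10 antenna and photosystem genes by their difference, and to the left for 12 of the 16 glucosinolate and ER body genes.

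Several defence proteins of the cell wall and the apoplast were lower in ago1-11. Chitinases and beta-1,3-glucanases degrade the walls of fungi, and class III peroxidases are secreted enzymes that act on wall phenolics and hydrogen peroxide. Both measured members of the chitinase and glucanase list fell, beside 3.31% lower among all tested probe sets. With only 2 members the share is no result about the list. With quantile normalization, with no filter or without a trend, 1 of the 2 was called. ChiC, a class V chitinase, read 25.8, 74.4 and 114 in ago1-10 and 7.91, 3.54 and 2.45 in ago1-11. The ago1-11 arrays were all under the filter value, as was the Ler (1) mean of 3.16. Col and dcl1-9 of that age were not as low, with means of 17.8 and 18.4. The Ler (2) arrays ran from 0.971 to 26.7, and the highest exceeded the lowest ago1-10 array. The difference between the alleles was -3.54 ± 0.68 (SE, limma adjusted p = 0.0024), or -1.94 with 16 added. At 9 days it was 0.105 and was not called (limma adjusted p = 0.934). The chitinase gene AT2G43570, named CHI in the gene table, read 278, 518 and 235 in ago1-10 and 103, 70.8 and 115 in ago1-11. Its difference of -1.77 ± 0.56 (SE) was just past the threshold (limma adjusted p = 0.0483) and held in 1 of 6 fits that each left out an array.

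OSM34, osmotin, a pathogenesis-related protein of the PR-5 type, was among the brightest genes lower in ago1-11. It read 2761, 2731 and 2102 in ago1-10 and 1428, 507 and 891 in ago1-11, with 267 to 539 in Ler (1) and 442 to 1961 in Ler (2). Replicate 2 of ago1-11 lay within the Ler (1) range and the other 5 arrays above it, while all 3 ago1-11 arrays lay within the wider Ler (2) range and all 3 ago1-10 arrays above that. The alleles differed by -1.54 ± 0.47 (SE, limma adjusted p = 0.0404). AT4G16260, a beta-1,3-glucanase by background knowledge and not on the list, read 2027, 2301 and 1824 in ago1-10 and 827, 270.0 and 787 in ago1-11. Replicate 2 of ago1-11 was the lowest for both genes. The difference of AT4G16260 was -1.86 ± 0.59 (SE, limma adjusted p = 0.0454) and held in 1 of 6 fits that left out an array, and that of OSM34 in 2 of 6. PR-1-LIKE and SAG29, the other members of the pathogenesis-related list, gave -0.66 and -0.11 and did not pass.

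The lowest difference of all belonged to AT5G06730, a class III peroxidase. It read 220, 94.7 and 49.3 in ago1-10 and 4.92, 6.01 and 10.0 in ago1-11. The 3 ago1-10 arrays spread widely, yet all stood above the filter value, and all 3 ago1-11 arrays lay under it, near the Ler (1) mean of 5.26. The difference was -3.71 ± 0.68 (SE, limma adjusted p = 0.0014), or -2.38 with 16 added. The peroxidase AT4G36430 read 519, 548 and 378 in ago1-10 and 140, 116 and 242 in ago1-11, a difference of -1.59 ± 0.43 (SE, limma adjusted p = 0.0208). Another peroxidase, AT3G21770, was lower by -1.65 on one probe set (limma adjusted p = 0.0179) and gave -1.23 on another (limma adjusted p = 0.114). The peroxidases that the list matched by name (AT2G41480, AT5G64120 and AT5G66390) were not called, with differences from -0.67 to -0.11.

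Further low genes were enzymes and transporters of other kinds. AT1G30760, an oxidase of the berberine bridge family, read 139, 214 and 102 in ago1-10 and 33.1, 21.8 and 26.4 in ago1-11, a difference of -2.39 ± 0.50 (SE, limma adjusted p = 0.0039). AMY1, a secreted alpha-amylase, read 44.02, 83.3 and 39.9 in ago1-10 and 11.3, 9.34 and 11.95 in ago1-11, where its mean was under the filter value. The difference was -2.18 ± 0.67 (SE, limma adjusted p = 0.0407), or -1.37 with 16 added, and the call held in 1 of 6 fits that left out an array. AT4G21910, a MATE-type efflux carrier, was lower by -1.38 ± 0.33 (SE, limma adjusted p = 0.0108).

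On the glucosinolate, myrosinase and ER body list more genes were called lower than higher in ago1-11. Its members were matched by gene name, so not every one need belong to these pathways. ER bodies are compartments of the endoplasmic reticulum in crucifers that store beta-glucosidases, NAI1 is the bHLH transcription factor needed to form them, and jacalin-type lectins bind the glucosidases when cells are broken. Of 16 measured genes of the list 6 fell, 2 rose and 8 did not pass, with a list median of -0.85 beside -0.04 over all tested probe sets, of which 3.31% were lower and 4.2% higher. NAI1 read 32.1, 42.4 and 43.1 in ago1-10 and 28.7, 16.2 and 10.7 in ago1-11. The lowest ago1-10 array and the highest ago1-11 array were close together, and the difference was -1.13 ± 0.34 (SE, limma adjusted p = 0.0361). JAL34, a jacalin-type lectin, read 448, 541 and 345 in ago1-10 and 270, 106 and 113 in ago1-11, a difference of -1.56 ± 0.37 (SE, limma adjusted p = 0.009). JAL31, another, was lower by -1.51 ± 0.46 (SE, limma adjusted p = 0.0381), although ago1-11 replicate 1, at 112, lay within the ago1-10 arrays.

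The beta-glucosidase BGLU15 read 197, 162 and 76.6 in ago1-10 and 36.1, 37.2 and 28.2 in ago1-11, with a difference of -1.97 ± 0.53 (SE, limma adjusted p = 0.0203). BGLU25 was lower by -0.92 ± 0.28 (SE, limma adjusted p = 0.0374). BGLU21, a glucosidase of ER bodies, had the largest negative difference of the list, -1.98 ± 0.69 (SE), but did not pass (limma adjusted p = 0.0718). It read 1471, 1799 and 447 in ago1-10 and 655, 81.4 and 356 in ago1-11, so the third ago1-10 array lay inside the ago1-11 range. The same array was the low one for AT1G54010, at 136 beside 794 and 801 in the other ago1-10 arrays.

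On the glucosinolate side, UGT74B1, which adds the glucose in glucosinolate synthesis, read 87.4, 100.2 and 86.0 in ago1-10 and 62.8, 47.9 and 48.6 in ago1-11. The groups were tight and did not overlap, and the difference was -0.78 ± 0.22 (SE, limma adjusted p = 0.0261). GTR1, a glucosinolate importer, gave -0.69 ± 0.29 (SE, limma adjusted p = 0.147). AOP1, related to the enzymes that modify glucosinolate side chains, was higher in ago1-11 by 0.97 ± 0.30 (SE, limma adjusted p = 0.04), with ago1-10 signals of 9.59, 6.74 and 5.002 under the filter value. BGLU28 was the second higher member. The number of lower genes called in this list fell from 6 to 0 without ago1-10 replicate 2 or ago1-11 replicate 2, to 1 without ago1-11 replicate 3 or with the 6 arrays alone, and to 2 without ago1-10 replicate 1.

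The remaining lists held few called genes. The shares called were 7.14% of the cold, drought and abscisic acid list, 11.1% of the senescence list and 11.1% of the UDP-glycosyltransferases, near the 7.51% of all tested probe sets, so they are no result about these lists. Of 14 cold, drought and abscisic acid genes 1 fell, the dehydrin LTI30, at -1.50 ± 0.48 (SE, limma adjusted p = 0.0479). Its lowest ago1-10 array read 376 and its highest ago1-11 array 377, and the call held in 2 of 6 fits that left out an array. Of 9 senescence-associated genes 1 fell, the autophagy gene APG8A (ATG8A), at -1.14 ± 0.35 (SE, limma adjusted p = 0.0384), and that call held in 1 of 6 such fits and was lost with quantile normalization and with no filter. Of 18 UDP-glycosyltransferases 2 fell, UGT74B1 and UGT87A2, the latter at -1.31 ± 0.36 (SE, limma adjusted p = 0.0224). Of 10 sulfur genes 1 rose and 1 fell, BGLU28 and APS4. None was called at an adjusted p under 0.05 in limma among 11 WRKY, ERF, NAC and zinc finger stress regulators or 7 auxin genes. Nor was any called among 6 defensins and thionins, 2 listed ribosomal proteins (PGY1 and PGY2), 2 phenylpropanoid genes and 1 heat shock gene. The ribosomal list did not include AT2G44120, which was called and is given above.

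**Figure D3:**
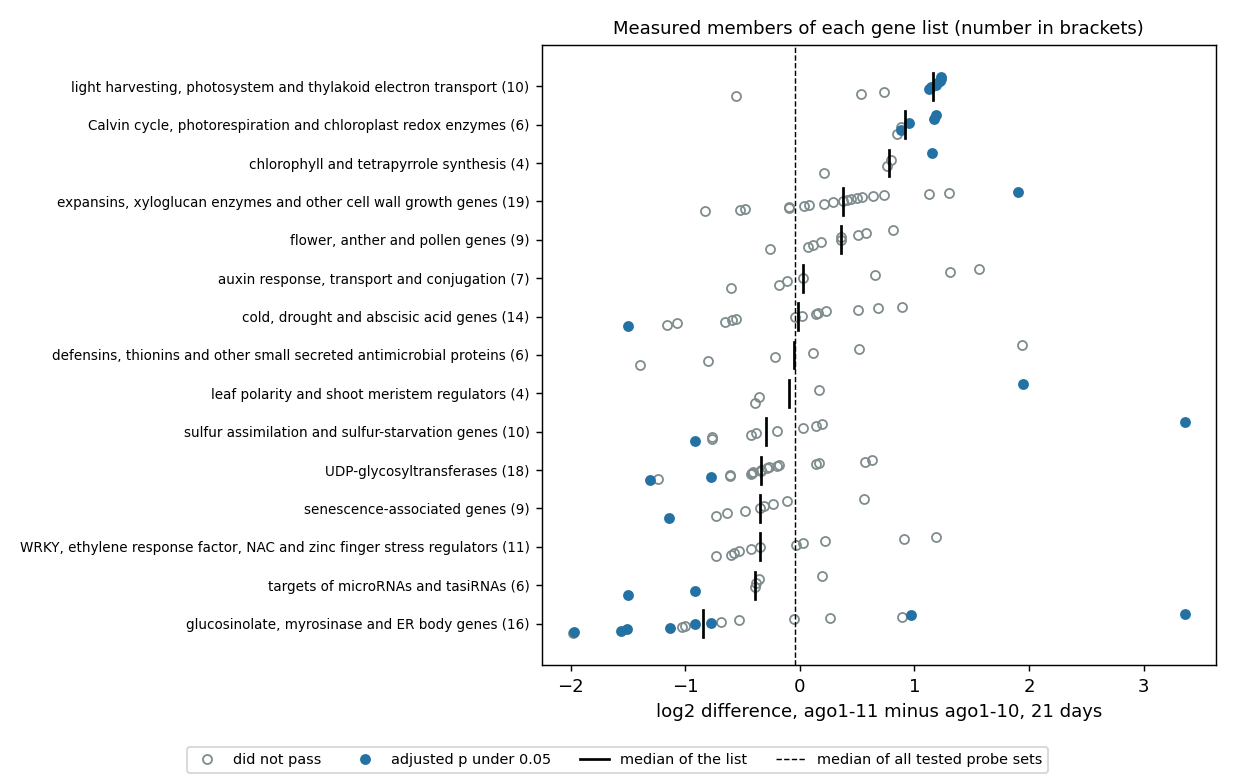
Log2 difference between the alleles (x axis) for each measured member of the lists with at least 4, 1 circle per gene, filled where called, with the list median as a solid bar and the median of all tested probe sets (-0.04) as a dashed line. The antenna and photosystem list has the highest median, 1.17, and the glucosinolate and ER body list the lowest, -0.85.

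The 9-day seedlings of both alleles, 4 arrays each, are separate samples and gave the same contrast at a younger age, though partly in other lines. The ago1-11 replicates 1 to 4 at 9 days carry the strain codes MR51, MR53, MR54 and MR57, and of the ago1-10 replicates 3 carry MR44 and replicate 4 carries MR49, while at 21 days all carry MR57 or MR44. Age and line can therefore not be told apart for ago1-11 except through 9-day replicate 4. That array was flagged as outlying for several named genes, though such flags were about as frequent as chance gives. At 9 days the alleles differed at 805 of 6048 probe sets (13.3% of those tested), 403 higher and 402 lower in ago1-11. Of the 454 probe sets called at 21 days 383 had the same sign at 9 days, or 84.4%, beside 64.1% of all tested probe sets. With the 9-day arrays of MR57 and MR44 alone, a setting chosen after seeing the data, 348 of the 454, or 76.7%, had the same sign, beside 60.1% of all tested. Both ages called 116 probe sets in the same direction, 65 higher and 51 lower, which make up 25.6% of the 21-day and 14.4% of the 9-day calls, and 2 in opposite directions. The 116 were 55 with the MR57 and MR44 arrays alone. Across the 454 probe sets the differences at the ages correlated at r = 0.736, and across all 6048 at r = 0.463. These are descriptions across probe sets, which are not independent.

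Differences were smaller in the younger seedlings for the probe sets called in the older. The median difference of those higher in ago1-11 was 1.18 at 21 days and 0.49 at 9 days, and of those lower it was -1.22 and -0.54. These probe sets were chosen by their 21-day values. Among named genes the direction was shared by ARPN, at -1.78 (limma adjusted p = 0.0013) at 9 days, by AT4G16260, at -2.08 (limma adjusted p = 0.0063), by TRXF2, at 1.26 (limma adjusted p = 0.0021) and by HPR, at 1.43 (limma adjusted p = 0.0012). APS4 gave -0.01 at 9 days and did not pass (limma adjusted p = 0.987), but its change between ages was not called either, at -0.91 (limma adjusted p = 0.24). Opposite signs at 9 days were found for AT1G11850, at -0.598, BGLU28, at -0.265, and ChiC, at 0.105. These 9-day differences did not pass (limma adjusted p = 0.311, 0.809 and 0.934). Nor were the changes of these genes between ages called (limma adjusted p = 0.0588, 0.0588 and 0.0616). AT4G18970 and AT4G28780, whose changes were called, are given below.

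The change of the allele difference between the ages was tested in the same model. It was called at 15 probe sets, 0.248% of those tested, 9 with a higher and 6 with a lower value at 21 days, with 833 at an unadjusted p under 0.05. Of the 15, 5 match 1 gene, and 7 were among the 454. AT4G18970 and AT4G28780, a pair of GDSL-type lipases, had the clearest change. For AT4G28780 the signals were 6.72, 9.38 and 6.44 in ago1-10 and 24.2, 46.0 and 55.9 in ago1-11 at 21 days, while both alleles were bright at 9 days, with means of 87.1 and 69.0. In ago1-10 its signal was near background at 21 days and, with a mean of 5.17, at 35 days. The allele difference was 2.26 ± 0.36 (SE, limma adjusted p = 0.00024) at 21 days and 2.61 ± 0.48 (SE) larger than at 9 days (limma adjusted p = 0.0089).

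AT4G18970 went the same way, with means of 208 in ago1-10 and 140 in ago1-11 at 9 days, and its difference was 2.75 ± 0.49 (SE) larger at 21 days (limma adjusted p = 0.0089). For AT4G29030 the change was 2.26 ± 0.48 (SE, limma adjusted p = 0.0314). AT2G33180 changed by 1.53 ± 0.35 (SE, limma adjusted p = 0.0442), from -0.82 at 9 days to 0.71 at 21 days, the latter not called (limma adjusted p = 0.0883). MCCA, a subunit of methylcrotonyl-CoA carboxylase in leucine breakdown, changed by -2.41 ± 0.49 (SE, limma adjusted p = 0.0249). At 9 days it read 6.33 to 13.1 in ago1-10 and 22.9 to 68.9 in ago1-11. At 21 days the alleles overlapped, at 29.02, 19.6 and 25.2 in ago1-10 and 26.6, 15.3 and 21.4 in ago1-11. The count of 15 was 0 without ago1-11 21-day replicate 2, 3 without ago1-11 9-day replicate 4, 42 without ago1-10 21-day replicate 1 and 97 without ago1-11 9-day replicate 2. With the 9-day arrays of MR57 and MR44 alone it was 105, of which 9 were among the 15, and the lone ago1-11 array was assumed to vary like the other groups. There the changes of AT4G28780, AT4G18970, AT2G33180 and MCCA were called, and that of AT4G29030 was 1.94 ± 0.64 (SE, limma adjusted p = 0.104) and did not pass.

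**Figure D4:**
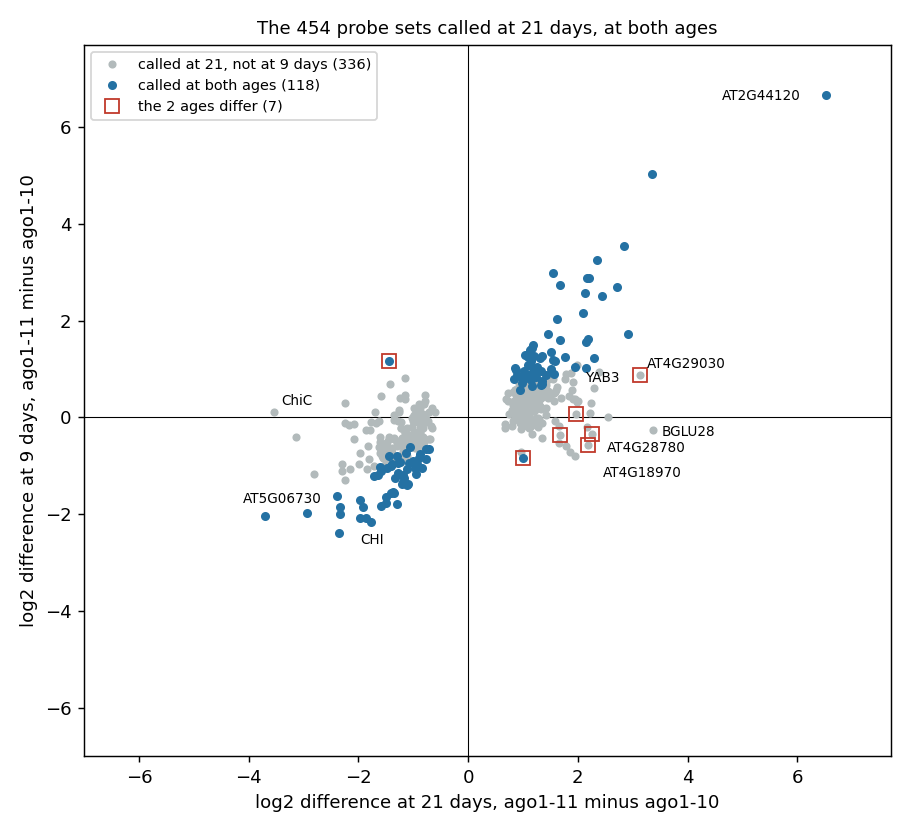
Log2 difference between the alleles at 21 days (x axis) against the same at 9 days (y axis) for the 454 probe sets called at 21 days, with those called at both ages in blue and those whose difference changed with age in red squares. Most points lie where the differences at both ages share a sign (383 of 454), and AT4G18970 and AT4G28780 lie below 0 at 9 days and above 2 at 21 days.

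The wild types place the alleles relative to each other. Both comparisons below share the same 3 Ler (1) arrays, so their values are set side by side as a description. At 21 days ago1-10 differed from Ler (1) at 1247 probe sets (20.6% of those tested), 587 higher and 660 lower, and ago1-11 at 145 (2.4%), 72 higher and 73 lower. For the 454 probe sets that separate the alleles, the Ler (1) mean lay nearer to ago1-11 at 387, or 85.2%, beside 65.6% of all tested probe sets. The share was 77.5% with Ler (2), beside 57.7%, and 83.3% with Col, beside 64.4%. Array brightness before scaling differed between the wild types. The medians of the Ler (1) arrays, from 11.3 to 21.3, overlapped those of ago1-11 and not those of ago1-10. So did those of the Col arrays, from 13.9 to 21.8. The medians of the Ler (2) arrays, from 19.1 to 25.6, overlapped those of ago1-10 and not those of ago1-11. The part of brightness in these shares was not tested. The ago1-11 mean lay between ago1-10 and Ler (1) at 236 of the 454, Ler (1) lay between the alleles at 203, and ago1-10 lay between the others at 15.

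The groups of genes fell into these orders. The antenna and photosystem list had a median of -1.33 for ago1-10 minus Ler (1) and of -0.14 for ago1-11 minus Ler (1), and the carbon fixation list of -1.34 and -0.40. For RCA the values were -0.92 (limma adjusted p = 0.00087) and -0.04 (limma adjusted p = 0.95). For the glucosinolate and ER body list the medians were 0.72 and 0.17. ARPN was above Ler (1) by 2.52 in ago1-10 (limma adjusted p = 4.3e-05) and by 1.02 in ago1-11 (limma adjusted p = 0.196). APS4 was above it in both, by 2.11 (limma adjusted p = 2.6e-06) and 1.195 (limma adjusted p = 0.0144).

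A few named genes differed more from Ler (1) in ago1-11 than in ago1-10. EXO was 2.18 above Ler (1) in ago1-11 (limma adjusted p = 0.0022) and 0.27 above it in ago1-10 (limma adjusted p = 0.68). BGLU28 was 3.99 above Ler (1) in ago1-11 (limma adjusted p = 0.00041), a size that depends on the constant added because Ler (1) is near background, and 0.63 in ago1-10 (limma adjusted p = 0.533).

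**Figure D5:**
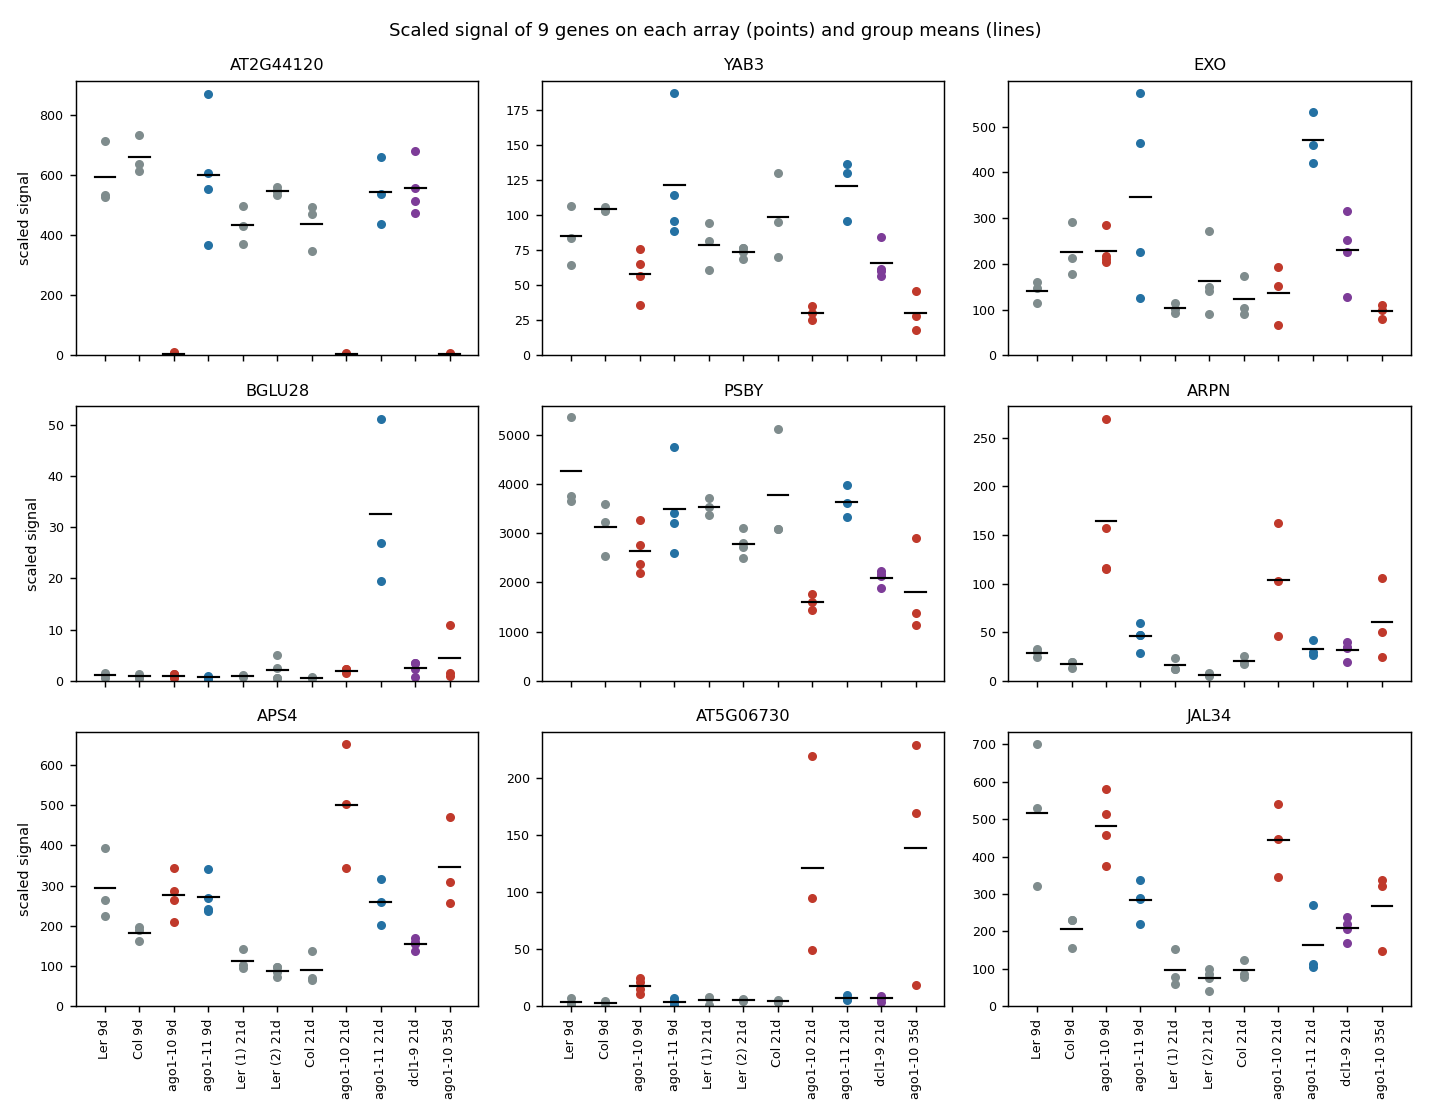
Scaled signal of 9 named genes in all 11 groups of the series, 1 point per array with the group mean as a line and each axis starting at 0 (red ago1-10, blue ago1-11, purple dcl1-9, grey wild types). AT2G44120 is near 0 in ago1-10 at all 3 ages and nowhere else, BGLU28 exceeds the filter value of 12 in ago1-11 at 21 days alone, and ARPN has its highest group means in ago1-10.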

How the data were processed

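The submitters' processing notes name MAS5, from which the authors deposited a linear signal intensity for each probe set. Its version, scaling target and the build behind it were not given in the sources used here. Exactly 3 decimals stand in 7913 of 305139 cells, in 491 probe sets, while every other reading is at most 999.9. Those cells were multiplied by 1000.

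Array medians spanned 1.42 on the log2 scale and were scaled to 19.1. The filter value of 12, to be exceeded on 3 arrays, is percentile 40 of the values and left 6048 of 8247 probe sets, and log2 was taken of the deposited signal, scaled, plus 1.1 (percentile 10). One limma 3.58.1 model in R 4.3.3 (lmFit, contrasts.fit, eBayes with trend) held all 37 arrays with 11 group means and no covariate, and p-values were adjusted over all tested probe sets. Python 3.11.15, pandas 2.3.3, numpy 2.4.6 and matplotlib 3.10.9 made tables and figures. The 21-day comparison was also run on simulated data, with 100 of 6048 probe sets changed at each size. There 33% of 2-fold and 93% of 4-fold changes were recovered and 9 unchanged probe sets were called. The simulated noise was normal, independent between arrays and of the fitted spread, with no effect of brightness or line. These figures therefore need not hold for the real arrays. Precision is limited by the number of arrays.

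The platform annotation gives 1 gene for 3794 probe sets and several for 70, and does not list 4383. Symbols come from TAIR10.1, where 3784 matched 3592 loci, and no coordinates are printed since the files name no build. Named genes are, from called probe sets that have 1 gene and no overlap between the alleles, the 12 with the highest and the 12 with the lowest difference with 16 added, and further up to 2 called members per list, 5 listed microRNA targets and the called changes between ages. Other list members are given to describe their lists and were chosen after their values were seen. Lists were matched by symbol, 22 of 24 had a measured gene, 153 loci in all, and 16 false matches were removed. Members and lists were chosen with earlier results of these data known. The last letter of the titles could pair arrays of the alleles. Deviations from the group means correlated at 0.27, 0.152 and 0.06 between same-letter arrays and at -0.289 to 0.155 between other-letter arrays. Whether the letters pair the samples was not settled, and the main model used no pairing. Alternatives tried are in the closing section.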

Additional observations from a re-analysis of the deposited data

Results flagged for a closer look

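Of 94 groups of 4 arrays tested for an outlying array among the named probe sets, 4 had one. Chance gives about 1 in 20, so the count is near that of chance and is no result. In the 9-day ago1-11 group replicate 4 stood apart for AT4G29020, at 729 beside 1162, 1176 and 1095 in the other arrays. The same array was low for AT4G16260, at 95.6 beside 486, 399.8 and 372. It was low for AT4G36430 too, at 28.7 beside 56.5, 55.95 and 57.4. In the 9-day ago1-10 group replicate 4 stood apart for RCA, at 3314 beside 2757, 2736 and 2739. Replicate 4 is the one 9-day ago1-11 array with the strain code MR57 of the 21-day arrays, and replicate 4 of ago1-10 the one with MR49, so array and line cannot be told apart. The groups of 3 arrays at 21 days are too small for this test.

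The difference between the alleles was not the same at the 2 ages for 5 genes, by a test of the change itself in the limma model of all arrays. The change was 2.26 for AT4G29030, 2.75 for AT4G18970, 2.61 for AT4G28780, 1.53 for AT2G33180 and -2.41 for MCCA (log2, 21 days minus 9 days). The 9-day ago1-11 arrays are mostly of other lines than MR57, so age and line cannot be told apart here. With the 9-day arrays of MR57 and MR44 alone not all of these changes passed, as given above.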

How the results depend on the processing

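The direct comparison called 454 probe sets. The number was 464 with quantile normalization, 473 with centred log2 values, 471 with a trimmed mean, 452 and 506 with 1 and 16 added, 357 with no filter, 448 with the filter on the 6 arrays compared, 353 with only the 21-day wild types beside them and 432 without a trend. It was 295 with the 3-decimal values left as written, 275 with plain probe sets only (4429 tested), 936 with ago1-10 replicate 3 exchanged for the 35-day array whose title carries the number 2, and 58 with the 6 arrays alone. The fit with the title letter as a replicate block also held the 6 arrays alone. It called 254, beside 58 without the block, and 198 of the 254 were among the 454. Leaving out 1 array gave 102 to 575. The share of higher calls was 55.9%, 65.8% with centring, and 48.0% both with 16 added (243 higher, 263 lower) and with the block. The cause of these changes was not tested, and some settings also leave fewer probe sets or arrays.

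The change with age, 15 calls, gave 19 with the 3-decimal values as written, 19 with the filter on the 6 arrays, 31 with centring, 34 with a trimmed mean, 55 with quantile normalization, 17 and 27 with 1 and 16 added, 16 with no filter, 17 without a trend, 4 with plain probe sets, 110 with the exchanged array, 105 with the 9-day arrays of the 21-day strain codes only (chosen after seeing the data), and 0 to 97 with 1 array left out.

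Of 39 called named probe sets 39 were still called with a trimmed mean, with 1 or 16 added and with the filter on the 6 arrays, 38 with centring, 35 with quantile normalization (APG8A, CHI, LHCB4.1 and RCA lost), 33 with no filter, 33 with the replicate block (APG8A, APS4, PORB, a PSAE-1 probe set, RCA and UGT74B1 lost), 19 with the 6 arrays alone, and 18 (without ago1-10 replicate 2) to 37 with 1 array left out. Signs turned in 5 values, all with the 3-decimal values left as written: PSAE-1 at -1.5 and -5.23, AT4G16260 at 7.43, OSM34 at 7.85 and LTI30 at 1.38. By construction that reading puts values of 1000 and more below smaller ones. Of the 454 called, 82 have a group mean under 12, and 61 of these were still called with 16 added.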
